A study of Mus musculus with 2 samples.

Results

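The nonclassical MHC class I genes H2-M2, H2-M3, H2-Q4, H2-Q6, H2-Q7, H2-T22 and H2-T23 and the related genes Cd1d1 and Mr1 were followed across splenic dendritic cells. These 9 genes, of the 31053 in the deposited gene table, were picked by symbol, with their levels in mature and resting dendritic cells already known, so those levels are given as a description. The cells came from spleens of naive mice aged 7 to 9 weeks that carried Il7r-cre and Rosa26-lsl-tdTomato. In these mice Cre made under the control of Il7r, a receptor gene of lymphoid progenitors, permanently switches on the red protein tdTomato in a cell and its descendants. CD11c-enriched cells were sorted into a tdTomato-positive group, named L-cDC, and a tdTomato-negative group, named M-cDC, and each group was 1 library of droplet 3′ single-cell sequencing. Both groups share the genotype, and the labels do not say how many animals were pooled.

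Classical class I proteins present cytosolic peptides to CD8 T cells in nearly every tissue. Nonclassical class I proteins pair with beta-2 microglobulin, as the classical ones do, but vary little between individuals and are read by restricted sets of T and natural killer (NK) cells. Dendritic cells take up and display antigen, and on maturation they raise antigen display and the chemokine receptor Ccr7, which guides them to T cell areas. Much of class I transcription runs through a promoter module bound by RFX, CREB/ATF and NF-Y with the co-activator Nlrc5, and through NF-kB and interferon response elements.

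The libraries held 40170515 unique molecular identifiers (UMIs, each a counted transcript molecule) in 4939 cell barcodes of L-cDC and 52973960 in 6674 of M-cDC. After filters 3943 and 5600 cells remained, with medians of 8573 and 7663.5 UMIs. The cells fell into 20 clusters, and 6 barcodes occurred in both libraries, 4 of them among the kept cells. Mature cells made up 75.9% of the L-cDC library (2994 cells) and 60.8% of the M-cDC library (3406 cells), cDC1-like cells numbered 215 and 752, and cDC2-like cells 99 and 875. All 34 markers of mature Ccr7+ dendritic cells reached 10 CPM (UMIs in 1000000) in the mature class of both libraries, and they summed to 30333 and 30755 CPM there against 1206 to 2949 CPM in the cDC1-like and cDC2-like classes. The 24 cDC1 markers summed to 8578 and 9250 CPM in cDC1-like cells and the 22 cDC2 markers to 2641 and 2453 CPM in cDC2-like cells. Lists for pDC, monocyte or macrophage, NK, T, B, plasma, neutrophil, erythroid and cycling cells summed to at most 442 CPM in any of the 3 classes. Clusters of 199 NK-like, 53 B-like and 76 monocyte- or macrophage-like cells were kept out of the classes.

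Levels are given as CPM, the UMIs of a gene in 1000000 UMIs of its class and library, with the L-cDC value before the M-cDC value where a pair is given. Ratios carry exact 95% intervals that cover counting error only. With 1 library per group there is no replicate spread, so no p-value is given, and a size of 1.5-fold was used to describe differences among genes with at least 20 CPM in the higher side and 50 UMIs over both. Since these are counts at transcript ends, levels are compared for each gene across cells and not between genes.

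Promoters are shown because 6 of the 7 members on chromosome 17 share a pair of motifs. No window of Cd1d1 was used here. RefSeq (GRCm38.p6) gave a window from 250 bases before to 50 after the start for 8 members. The stretch from -150 to -11 is printed 5′ to 3′ on the strand of the gene, and capitals mark the letters TGATGAC, which resemble the X2 element that CREB/ATF proteins bind, and CCAAT on either strand (ATTGG when read in reverse), the core of the NF-Y site. These and the other motifs were chosen after the sequences were seen.
H2-M2, chr17:37483565-37483704, minus strand: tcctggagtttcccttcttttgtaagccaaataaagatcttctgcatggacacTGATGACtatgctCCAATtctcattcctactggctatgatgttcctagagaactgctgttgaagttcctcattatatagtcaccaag
H2-M3, chr17:37270084-37270223, plus strand: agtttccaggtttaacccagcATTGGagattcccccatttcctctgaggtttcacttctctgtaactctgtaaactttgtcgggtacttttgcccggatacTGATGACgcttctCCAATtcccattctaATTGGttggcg
H2-Q4, chr17:35379467-35379606, plus strand: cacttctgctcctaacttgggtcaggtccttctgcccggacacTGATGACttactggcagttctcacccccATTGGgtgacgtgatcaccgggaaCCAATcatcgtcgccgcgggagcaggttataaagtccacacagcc
H2-Q6, chr17:35424700-35424839, plus strand: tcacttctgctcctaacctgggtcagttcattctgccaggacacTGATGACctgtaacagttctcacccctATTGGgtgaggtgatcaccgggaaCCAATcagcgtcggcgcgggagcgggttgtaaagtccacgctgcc
H2-Q7, chr17:35439005-35439144, plus strand: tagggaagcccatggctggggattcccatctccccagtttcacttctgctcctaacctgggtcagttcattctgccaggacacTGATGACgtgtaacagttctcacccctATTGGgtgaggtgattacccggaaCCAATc
H2-T22, chr17:36042753-36042892, minus strand: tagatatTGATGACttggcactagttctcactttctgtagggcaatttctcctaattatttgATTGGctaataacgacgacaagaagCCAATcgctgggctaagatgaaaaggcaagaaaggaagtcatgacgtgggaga
H2-T23, chr17:36032712-36032851, minus strand: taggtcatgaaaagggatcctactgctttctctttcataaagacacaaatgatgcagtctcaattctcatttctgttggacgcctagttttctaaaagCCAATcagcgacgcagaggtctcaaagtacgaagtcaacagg

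TGATGAC, searched on both strands of the 300 bases, occurred in H2-M2, H2-M3, H2-Q4, H2-Q6, H2-Q7 and H2-T22, that is in 6 of 8 windows, against 3.23% of the 32851 windows of all genes. CCAAT occurred in 7 of 8 against 37.4%, and both motifs together in 6 of 8 against 1.20%. A kB-like motif, GGGNNTTCC, occurred in 4 of 8 against 5.82%, in H2-M2, H2-Q4, H2-Q6 and H2-Q7. An interferon response-like motif, TTTCNNTTT, occurred in 3 of 8 against 10.6%, in H2-T22, H2-T23 and Mr1. No match of one motif overlapped a match of another. H2-M3 held TGATGAC and CCAAT but neither other motif. The printed H2-T23 stretch, placed by the RefSeq start, lies inside the gene as GENCODE places it (chr17:36029773-36032855). The absence of TGATGAC there thus rests on fewer bases upstream of the GENCODE start than for the other members. H2-Q4, H2-Q6 and H2-Q7 are related by descent, so their windows are not independent, and a match is a string of letters, not a shown binding site.

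**Figure D1:**
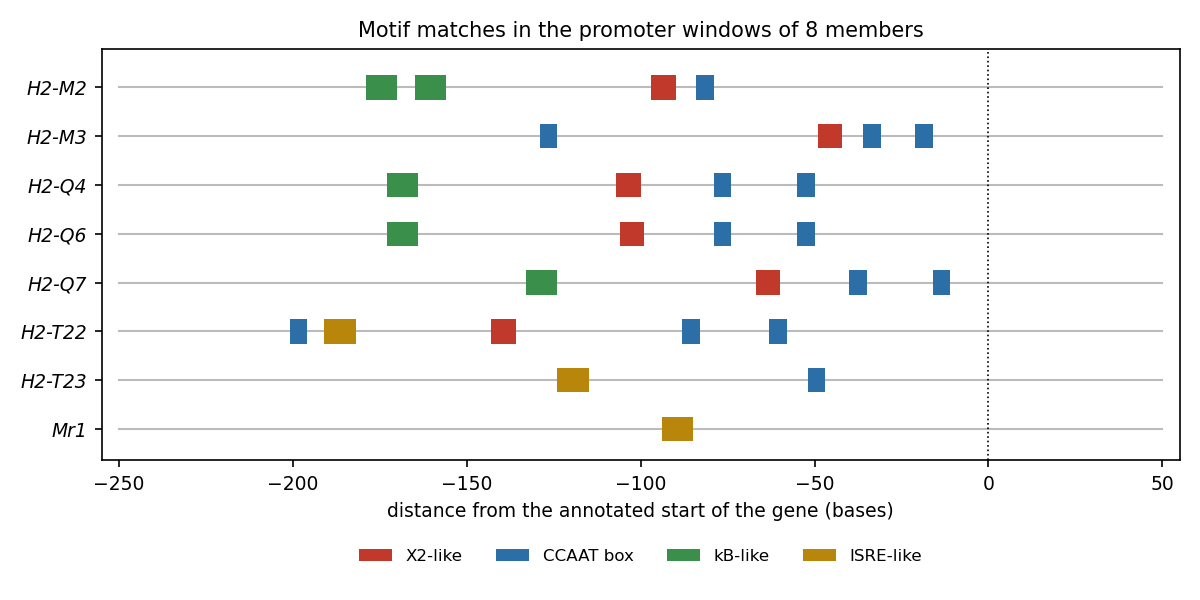
Lines are the promoter windows of 8 members, with the distance from the gene start annotated by RefSeq in bases on the x axis, and blocks are motif matches on either strand (red X2-like, blue CCAAT, green kB-like, gold interferon response-like). In 6 windows a red block lies upstream of at least 1 blue block, as at -107 and -79 in H2-Q4, and Mr1 has only a gold block.

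In mature cells 7 of the 8 members with enough counts stood at least 1.5-fold above cDC1-like cells in each library. These were H2-M2, H2-Q4, H2-Q6, H2-Q7, H2-T22, H2-T23 and Cd1d1. Of all 5323 genes considered in the L-cDC library 27.4% passed that size upwards and 32.8% downwards, and of 5415 in the M-cDC library 26.4% and 35.0%, while no member was lower. Over cDC2-like cells the same 7 genes were higher in each library, beside 20.6% of 5571 genes and 20.2% of 5588. H2-M3 was the 1 member lower than in cDC2-like cells, where 38.3% and 38.1% of genes were lower. The median log2 ratio of the 8 members was 2.04 and 2.08 over cDC1-like cells and 1.61 and 1.87 over cDC2-like cells, against -0.10, -0.15, -0.33 and -0.33 over all genes considered. The members were chosen with this contrast known, so the counts describe them and are not evidence for the choice.

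**Figure D2:**
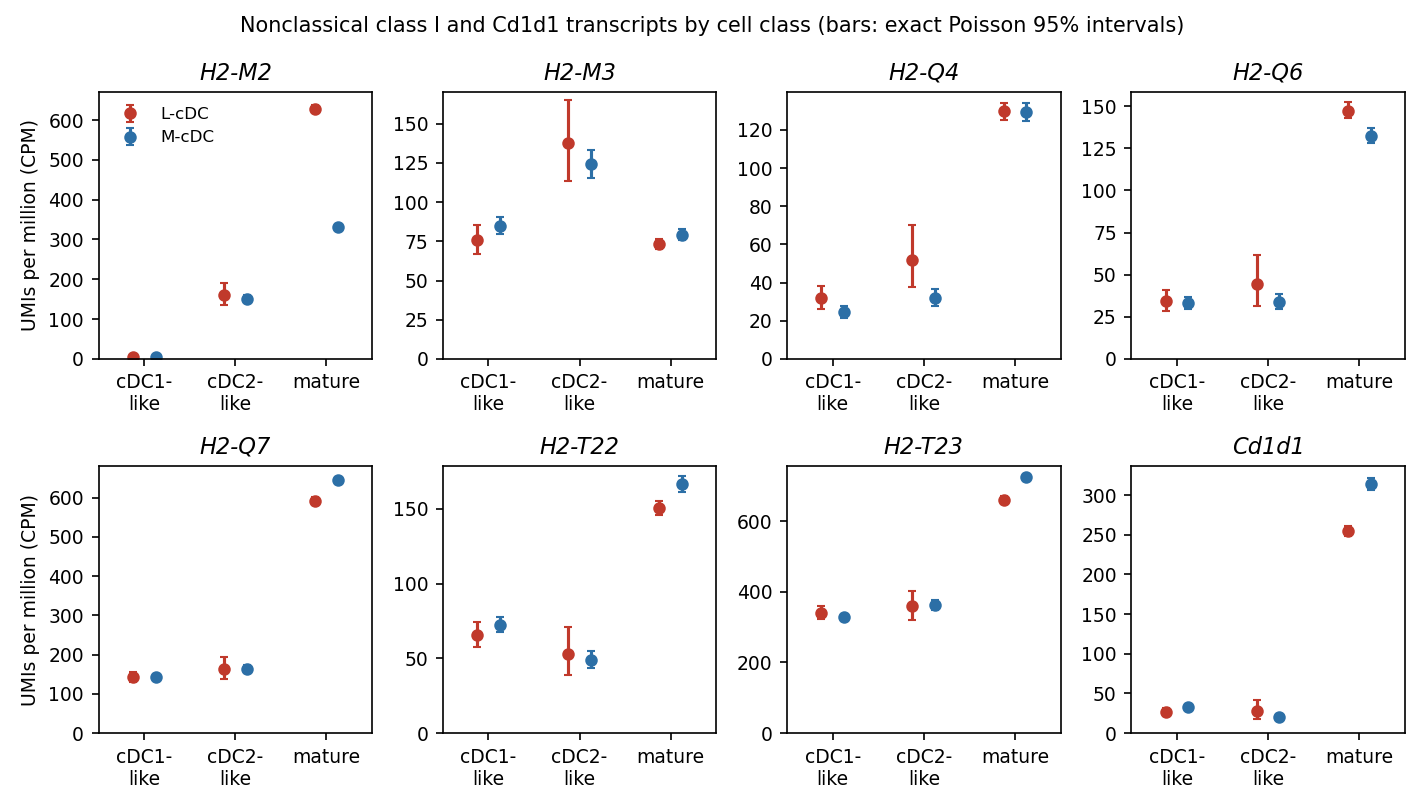
Each panel plots 1 gene, with CPM on the y axis and the cDC1-like, cDC2-like and mature classes on the x axis; points are the L-cDC (red) and M-cDC (blue) libraries and bars are exact Poisson 95% intervals. In 7 panels both mature points lie above every resting point, and in the H2-M3 panel the cDC2-like points, 138 and 124 CPM, are the highest.

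Cd1d1 encodes CD1d, which presents lipids to natural killer T cells, and lies on chr3:86995834-86999441 (minus strand, GRCm38). It measured 26.4 CPM in cDC1-like cells of L-cDC and 33.3 CPM in those of M-cDC, 27.8 and 19.8 CPM in cDC2-like cells, and 254 and 314 CPM in mature cells. The mature class was therefore higher than either resting class in both libraries. The ratio over cDC1-like cells was 9.63 (7.86 to 11.9) in L-cDC and 9.43 (8.48 to 10.5) in M-cDC. Over cDC2-like cells it was 9.16 (6.101 to 14.5) and 15.8 (13.3 to 19.0). Under the alternatives Cd1d1 stayed higher in mature cells, but the size depended on the cells let in. The log2 ratio over cDC1-like cells of L-cDC went from 3.27 to 2.26 at a minimum of 200 genes, to 2.32 when doublet-like cells were left in and to 2.43 with at most 5% mitochondrial UMIs, and that over cDC2-like cells of L-cDC from 3.20 to as much as 4.05 with a minimum of 200 genes. In M-cDC the ratio over cDC2-like cells fell from 3.98 to 2.98 with doublet-like cells kept, and that over cDC1-like cells from 3.24 to 2.51 with naming by leading genes over all other clusters. That naming leaves several clusters out of the mature class, among them the cluster led by Dnah2, which held 57.5% of the mature Cd1d1 UMIs of M-cDC. A UMI of Cd1d1 was found in 58.7% and 60.1% of mature cells, 34.9% and 34.0% of cDC1-like cells and 15.2% and 13.3% of cDC2-like cells. The classes differ in depth, with median UMIs of 8094 and 6800 in mature, 16302 and 14338.5 in cDC1-like and 7921 and 6995 in cDC2-like cells. With each cell thinned to 3000 UMIs the shares were 41.0% and 46.4%, 7.91% and 10.09%, and 9.38% and 5.15%, beside 6.06% in the 198 NK-like cells of L-cDC.

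H2-M2, on chr17:37480851-37483552 (minus strand), is a class I gene of the telomeric M region whose ligand is not well known. In cDC1-like cells it measured 5.29 and 4.28 CPM, in cDC2-like cells 161 and 151 CPM, and in mature cells 629 and 331 CPM. The ratio of mature over cDC1-like cells was 119 (76.1 to 198) and 77.3 (57.9 to 106), resting on 19 and 46 UMIs in the cDC1-like cells. In L-cDC the log2 ratio fell from 6.89 to 3.63 when doublet-like cells were left in, equally to 3.63 at a minimum of 200 genes, and to 3.97 with at most 5% mitochondrial UMIs. In M-cDC it fell from 6.27 to 3.99, 5.47 and 5.51 in the same settings. Over cDC2-like cells the ratio was 3.92 (3.30 to 4.68) and 2.19 (2.04 to 2.34). That contrast lost the 1.5-fold size in 1 of 20 alternatives in L-cDC and in 4 of 20 in M-cDC, and was smallest with clusters named by leading genes over all other clusters, at log2 ratios of 0.37 and 0.38. That naming leaves the mature clusters led by Nrp2, Ryr3 and Nid1, the highest in H2-M2, out of the mature class. A UMI of H2-M2 was found in 55.4% and 46.8% of mature cells, 20.2% and 13.7% of cDC2-like cells and 8.84% and 2.39% of cDC1-like cells. With cells thinned to 3000 UMIs the shares were 44.2% and 34.0%, 13.5% and 10.8%, and 0.93% and 1.08%, beside 3.03% in the NK-like cells of L-cDC.

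The H2-M2 signal of cDC2-like cells came from few of them. The tenth of cDC2-like cells with most H2-M2 held 89.5% and 96.6% of its UMIs, against 63.3% and 62.5% for the tenth of mature cells with most. A cDC2-like cell with any H2-M2 had a mean of 6.65 and 7.94 UMIs, and the highest held 29 and 69. For H2-M3, found in 64.6% and 55.7% of the same cells, the corresponding shares were 28.9% and 34.9%. For Cd1d1, found in 13.3% of the cDC2-like cells of M-cDC, the share was 77.6%. Such a share depends in part on how many cells hold the gene. Cells with at least 3 UMIs of H2-M2 were 12 of 99 and 73 of 875, and their level was 1305 and 1586 CPM against 10.92 and 10.28 CPM in the others. These cells were picked by H2-M2, after its values were seen, so this level is a description. Their mature markers summed to 3476 and 3238 CPM, against 2880 and 2684 CPM in the other cDC2-like cells and 30333 and 30755 CPM in mature cells. Their median depth was 7323 and 7060 UMIs, against 8123 and 6976. Their class markers did not move one way. Of the cDC2 genes, Sirpa measured 261 and 316 CPM in them against 188 and 222 CPM, Clec4a4 0 and 28.4 CPM against 60.1 and 46.9 CPM, and Esam 0 and 7.10 CPM against 2.73 and 10.28 CPM. Of the mature genes, Ccr7 measured 73.1 and 42.6 CPM against 17.7 and 13.9 CPM, and Fscn1 198 and 60.3 CPM against 98.3 and 48.4 CPM. These marker levels carry no intervals. They rest on few UMIs in the 12 picked cells of L-cDC and, for Esam, in the 73 of M-cDC. The part of mature cells or their RNA in the H2-M2 signal was not tested. The same gathering occurred in the cluster led by Cd209d and Mgl2, which was left unnamed because it carried markers of both cDC2 and plasmacytoid dendritic cells. There H2-M2 measured 177 and 182 CPM, and the tenth of cells with most held 96.0% and 94.2% of its UMIs.

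Among the Q region genes, H2-Q7 encodes a Qa-2 antigen, a class I protein often anchored by a lipid tail, and H2-Q6 lies beside it and is closely related. H2-Q4 encodes Qb-1, which is less well described. They lie on the plus strand at chr17:35379617-35385290 (H2-Q4), chr17:35424850-35430055 (H2-Q6) and chr17:35439155-35443773 (H2-Q7). H2-Q7 measured 144 CPM in cDC1-like cells of both libraries, 164 and 163 CPM in cDC2-like cells, and 591 and 644 CPM in mature cells. Its ratio over cDC1-like cells was 4.12 (3.77 to 4.50) and 4.48 (4.25 to 4.72), and over cDC2-like cells 3.60 (3.04 to 4.29) and 3.96 (3.71 to 4.22). The 2 resting classes lay close together for H2-Q7 and mature cells stood apart from both. H2-Q4 measured 31.7 and 24.6 CPM in cDC1-like, 51.9 and 31.7 CPM in cDC2-like and 130 and 129 CPM in mature cells. H2-Q6 measured 34.5 and 33.0 CPM in cDC1-like, 44.7 and 33.8 CPM in cDC2-like and 147 and 133 CPM in mature cells. Both genes followed the order of H2-Q7, with ratios of mature over resting cells between 2.498 and 5.27 for H2-Q4 and between 3.30 and 4.27 for H2-Q6. Over cDC2-like cells of L-cDC, which are few, the ratio rose by more than 1.5 times in 5 of 20 alternatives for H2-Q4, from a log2 ratio of 1.32 to as much as 2.91, and in 4 of 20 for H2-Q6, from 1.72 to as much as 2.75, both with each library clustered alone. That of H2-Q7 fell from 1.85 to 1.18 with the Cd209d cluster counted as cDC2-like.

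In the T region, H2-T23 encodes Qa-1, which shows a leader peptide of classical class I to the CD94 and NKG2 receptors of NK cells. H2-T22 encodes a ligand of some gamma-delta T cells. They lie on the minus strand at chr17:36029773-36032855 (H2-T23) and chr17:36037128-36042747 (H2-T22). H2-T23 measured 341 and 328 CPM in cDC1-like, 359 and 362 CPM in cDC2-like and 659 and 723 CPM in mature cells. Its ratios were the smallest of the 7 higher members in each comparison, at 1.94 (1.83 to 2.05) and 2.21 (2.13 to 2.29) over cDC1-like cells and 1.84 (1.64 to 2.07) and 1.996 (1.91 to 2.09) over cDC2-like cells. The last contrast lost the 1.5-fold size in L-cDC in 1 of 20 alternatives, with the Cd209d cluster counted as cDC2-like. H2-T22 measured 65.4 and 72.6 CPM in cDC1-like, 53.1 and 48.9 CPM in cDC2-like and 150 and 167 CPM in mature cells, with ratios of 2.30 and 2.29 over cDC1-like and 2.83 and 3.41 over cDC2-like cells. The T region genes thus stood higher in the mature class than in either resting class of both libraries. Single clusters did overlap, as H2-T22 measured 53.0 CPM in the mature cluster of M-cDC led by Ryr3 and Mdk, below the 72.6 CPM of cDC1-like cells. That cluster had the lowest score for mature markers among the mature clusters, 0.52, so its place in the class is the least sure.

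H2-M3, on chr17:37270220-37274484 (plus strand), encodes a presenter of N-formylated peptides such as those of bacteria and mitochondria. It did not share the difference: 75.9 and 84.9 CPM in cDC1-like, 138 and 124 CPM in cDC2-like and 73.2 and 79.0 CPM in mature cells. Mature over cDC1-like cells gave 0.96 (0.85 to 1.10) and 0.93 (0.86 to 1.01). Over cDC2-like cells the ratio was 0.53 (0.44 to 0.65) in L-cDC and 0.64 (0.59 to 0.69) in M-cDC. This contrast lost the 1.5-fold size in 5 of 20 alternatives in L-cDC, where it was nearest 0 with each library clustered alone (log2 ratio -0.12), and in 3 of 20 in M-cDC. H2-M3 stayed below its cDC2-like level in all 20 in both libraries.

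Mr1, on chr1:155127277-155146814 (minus strand), encodes MR1, which shows microbial vitamin B metabolites to mucosal-associated invariant T cells. It stayed at 0.28 to 1.27 CPM in the 3 classes, with 18 and 11 UMIs among all mature cells, so no ratio could be read. The highest cluster with at least 50 cells of a library was the NK-like cluster of L-cDC, with 12 UMIs (5.98 CPM, 3.09 to 10.5).

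Within the mature class the members did not vary together. H2-M2 and Cd1d1 split the mature clusters in different ways. Cd1d1 was highest in the cluster led by Mir155hg, Mylk and Il6, with 497 and 618 CPM, and in the cluster led by Dnah2, Pla2g7 and Ido1, with 460 and 625 CPM. These clusters held 78.2% of the Cd1d1 UMIs of mature cells in L-cDC, and 79.7% of those in M-cDC, in 41.5% and 40.8% of the mature cells. It was lowest among clusters of at least 50 cells in the Nrp2 and Clu cluster of L-cDC (39.2 CPM) and the Txndc17 and Aldh1a2 cluster of M-cDC (63.6 CPM; 53.3 CPM in L-cDC). The Itgb8 and Ncoa7 cluster, the second largest, was also low, with 79.2 and 87.5 CPM.

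H2-M2 was highest in the Nrp2 and Clu cluster, at 2240 CPM in 379 cells of L-cDC, where 96.6% of cells had a UMI of it. It was also high in the Ryr3 and Mdk cluster, with 813 and 1106 CPM, and in the Nid1 and Lyz2 cluster, with 713 and 991 CPM. In both Cd1d1-high clusters H2-M2 lay between 297 and 308 CPM in either library. It was lowest in the Txndc17 and Aldh1a2 cluster, with 86.8 and 105 CPM, so that cluster was low in both genes. The Nrp2 and Clu cluster was instead highest in H2-M2 and lowest in Cd1d1 among the mature clusters of L-cDC. H2-M2 is among the leading genes of that cluster and Cd1d1 among those of the Dnah2 cluster, so these levels in part define the clusters. When cells were clustered without the members and other MHC genes, 6137 of the 6400 mature cells stayed mature, as did 961 of 967 cDC1-like and 929 of 974 cDC2-like cells in their classes. The cDC2-like class also took in 57 mature and 163 unnamed cells, and the log2 ratio of H2-M2 in mature over cDC2-like cells fell from 1.97 to 0.64 in L-cDC and from 1.13 to 0.70 in M-cDC. Levels in single clusters were not recomputed in that setting.

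**Figure D3:**
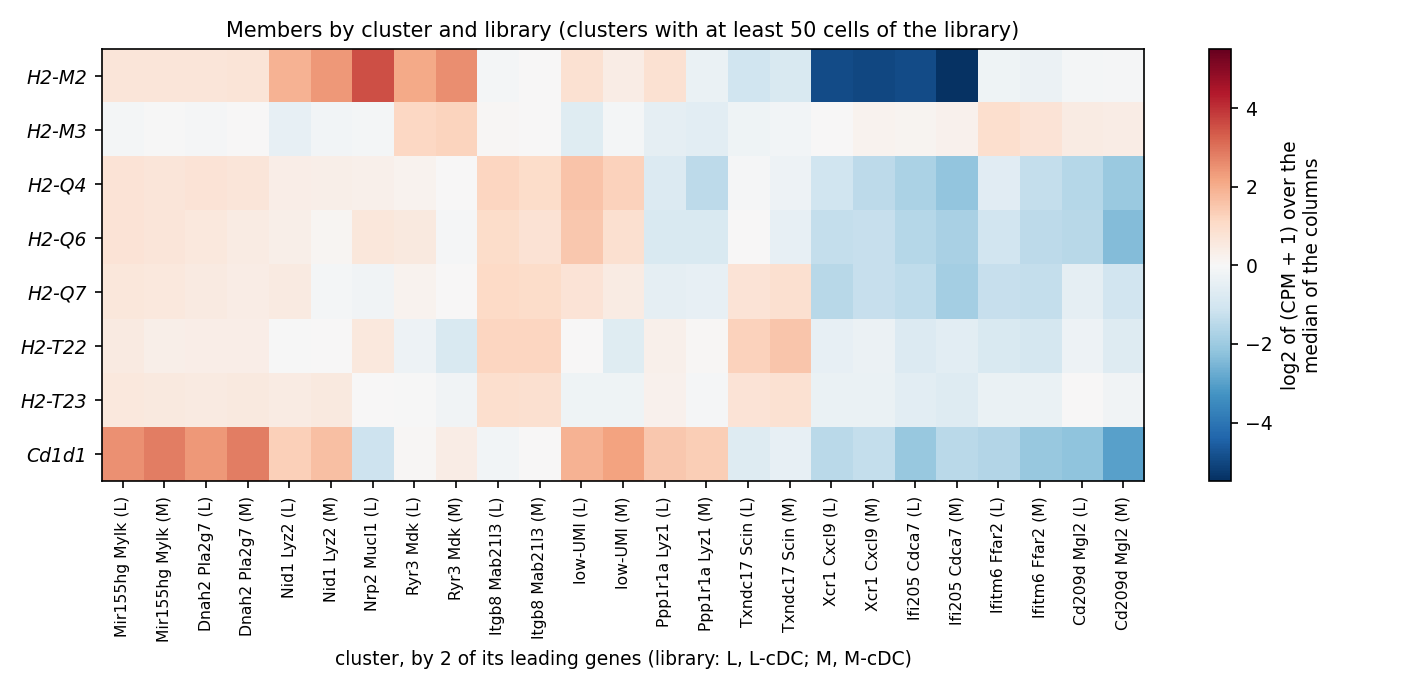
Rows are the 8 members and columns are clusters of mature (left), cDC1-like (Xcr1 and Ifi205), cDC2-like (Ifitm6) and unnamed (Cd209d) cells in each library with at least 50 cells; colour is log2 of CPM plus 1 over the gene's median across columns. H2-M2 is darkest red in the Nrp2 cluster (2240 CPM) and blue in cDC1-like cells, and Cd1d1 is reddest in the Mir155hg and Dnah2 clusters.

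The Q and T region members peaked in other clusters. H2-Q7 was highest in the Itgb8 and Ncoa7 cluster, with 849 and 804 CPM, and lowest in the Ppp1r1a and Lyz1 cluster, with 289 and 297 CPM. H2-T23 was likewise highest in the Itgb8 cluster, with 874 and 846 CPM. H2-T22 was highest in the Txndc17 and Aldh1a2 cluster, with 236 and 280 CPM, followed by the Itgb8 cluster with 220 CPM in both libraries. The clusters lowest in Cd1d1 thus included those highest in H2-T22, H2-T23 and H2-Q7. H2-T22 was lowest in the Ryr3 and Mdk cluster, with 80.6 and 53.0 CPM, which was the highest mature cluster for H2-M3, with 162 and 173 CPM. H2-M3 in that cluster was above its level in cDC2-like cells of the same library, 138 and 124 CPM, although the whole mature class was below it. The cluster had the lowest mature score. Without it the log2 ratio of H2-M3 in mature over cDC2-like cells of M-cDC was -0.79 in place of -0.65. H2-Q4 and H2-Q6 were highest in a low-UMI mature cluster (239 and 195 CPM, 260 and 171 CPM) whose cells had a median of 1848 UMIs and whose B2m, the shared light chain, was 827 and 652 CPM against 3453 to 5610 CPM in the other mature clusters with at least 50 cells. The part of that RNA quality in the result was not tested.

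**Figure D4:**
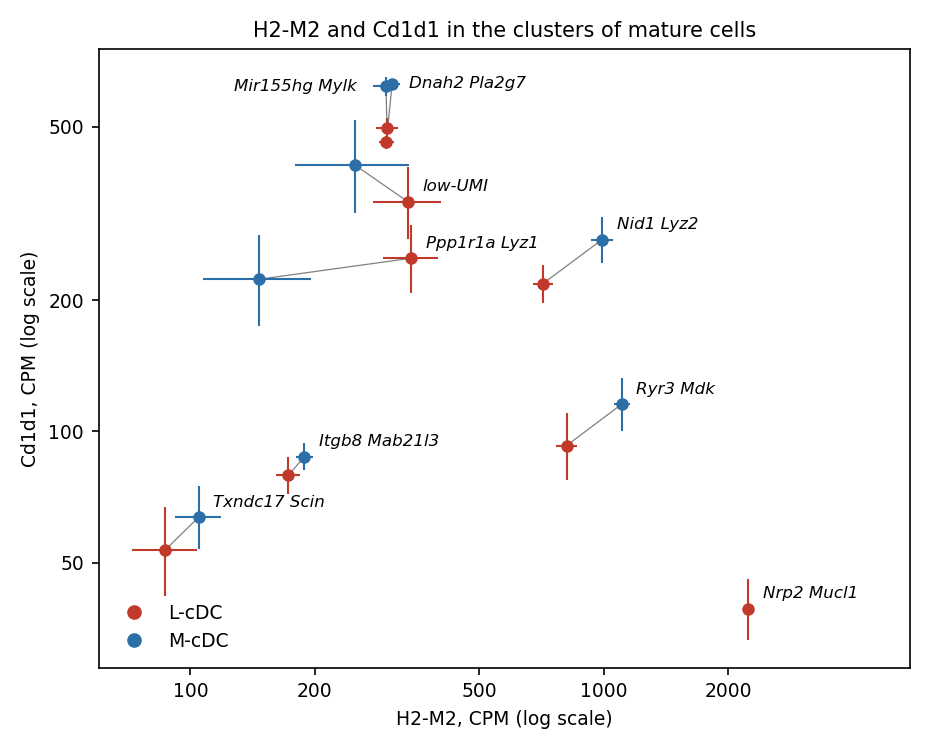
Each point is a cluster of mature cells in the L-cDC (red) or M-cDC (blue) library, named by 2 leading genes, with H2-M2 on the x axis and Cd1d1 on the y axis in CPM on log scales; bars are exact 95% intervals and lines join the libraries of a cluster. The Nrp2 cluster of L-cDC lies alone at 2240 and 39.2 CPM, the Mir155hg and Dnah2 clusters lie at the top near 300 CPM of H2-M2, and the Txndc17 cluster is low on both axes.

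Outside the 3 classes, the NK-like cells of L-cDC held H2-Q7 at 461 CPM (431 to 491) and H2-T22 at 151 CPM (135 to 169), within the range of mature clusters, and H2-M2 at 9.47 CPM. An unnamed cluster led by Cxcl10 and Ifit3, genes that respond to interferon, had only 6 and 21 cells. H2-T23 measured 1024 and 732 CPM there and H2-T22 288 and 226 CPM, while Cd1d1 was at 0 and 11.01 CPM (2 UMIs).

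Over the 18 clusters with at least 50 cells, libraries summed, the pattern of H2-Q4 was most like that of H2-Q6 (Pearson r = 0.97), also of the Q region. H2-Q7 followed both (r = 0.87 with H2-Q4 and 0.86 with H2-Q6). H2-M3 correlated negatively with all 7 other members, from -0.57 with H2-T22 to -0.05 with H2-M2. Of 7737 genes, the patterns most like H2-M2 were Gatsl2 (0.91), Chst7 (0.91) and Tnfrsf1b (0.90), and those most like Cd1d1 were Mpi (0.92), Ido1 (0.92) and Ctrc (0.91). For H2-M3 they were Scn3a (0.88), Tspan13 (0.84) and Cyp4f16 (0.82). For H2-Q4 and H2-Q6, Cblb came next after each other (0.95 and 0.96). For H2-Q7 they were Suox (0.90), Rasa2 (0.89) and Ppp1cb (0.88), for H2-T22 Pla2g16 (0.88), Epsti1 (0.86) and Glipr2 (0.84), and for H2-T23 Scpep1 (0.91), Dctn2 (0.90) and Gyg (0.89). The clusters share libraries and depth, and these correlations are a description.

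Between L-cDC and M-cDC, cells of 1 class were compared at a time. In cDC1-like cells 0 of 7 considered members differed by 1.5-fold, beside 1.01% of 4763 genes. L-cDC values divided by M-cDC values ran from 0.79 (0.63 to 0.998) for Cd1d1 to 1.29 (1.03 to 1.61) for H2-Q4. The Cd1d1 ratio turned round in 3 of 20 alternatives, up to a log2 ratio of 0.48 with a minimum of 200 genes per cell. In cDC2-like cells 1 of 8 did, beside 8.0% of 5336 genes. It was H2-Q4, at 51.9 against 31.7 CPM (1.64-fold, 1.15 to 2.28), on 43 and 200 UMIs. That difference lost the 1.5-fold size in 10 of 20 alternatives and turned round when each library was clustered alone (log2 ratio -0.93) and when cells were classed one by one (-0.04). The other 7 ratios in cDC2-like cells lay between 0.99 for H2-T23 and 1.40 for Cd1d1. Several changed sign with the setting, as H2-M3 did in 11 of 20 alternatives (log2 ratio 0.15, and -0.69 with each library clustered alone) and Cd1d1 and H2-Q6 in 5 of 20 each. H2-M2 among them, at 161 and 151 CPM, passed 1.5-fold in 6 of 20 alternatives, up to a log2 ratio of 1.18 with a stricter minimum of genes per cell.

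In mature cells 1 of 8 members differed, H2-M2, beside 1.51% of 4427 genes. The levels were 629 and 331 CPM, 1.90-fold (1.85 to 1.95). The Nrp2 and Clu cluster held 379 mature cells of L-cDC and 5 of M-cDC, and it carried 56.5% of the mature H2-M2 UMIs of L-cDC in 12.7% of its mature cells. Without that cluster H2-M2 measured 325 and 327 CPM, a ratio of 0.99 (0.96 to 1.03). Naming clusters by leading genes over all other clusters, a setting added after seeing the data, gave a log2 ratio of 0.08 in place of 0.93. That naming also leaves the Nrp2 cluster out of the mature class, together with the Dnah2, Nid1, Ryr3 and Ppp1r1a clusters, so it is not a separate result. With only the Ryr3 and Mdk cluster left out, the log2 ratio was 1.20. Within clusters of any class with at least 50 cells of each library and 50 UMIs, H2-M2 stayed within 1.5-fold in 9 of 10. The exception was the Ppp1r1a and Lyz1 cluster, with 342 against 147 CPM (2.33-fold, 1.67 to 3.30) in 98 and 63 cells. In the Ryr3 and Nid1 clusters H2-M2 was lower in L-cDC, at ratios of 0.73 (0.68 to 0.79) and 0.72 (0.66 to 0.78). A cluster that comes almost wholly from 1 library may be that library and not a type, and with 1 library per group these cannot be told apart.

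**Figure D5:**
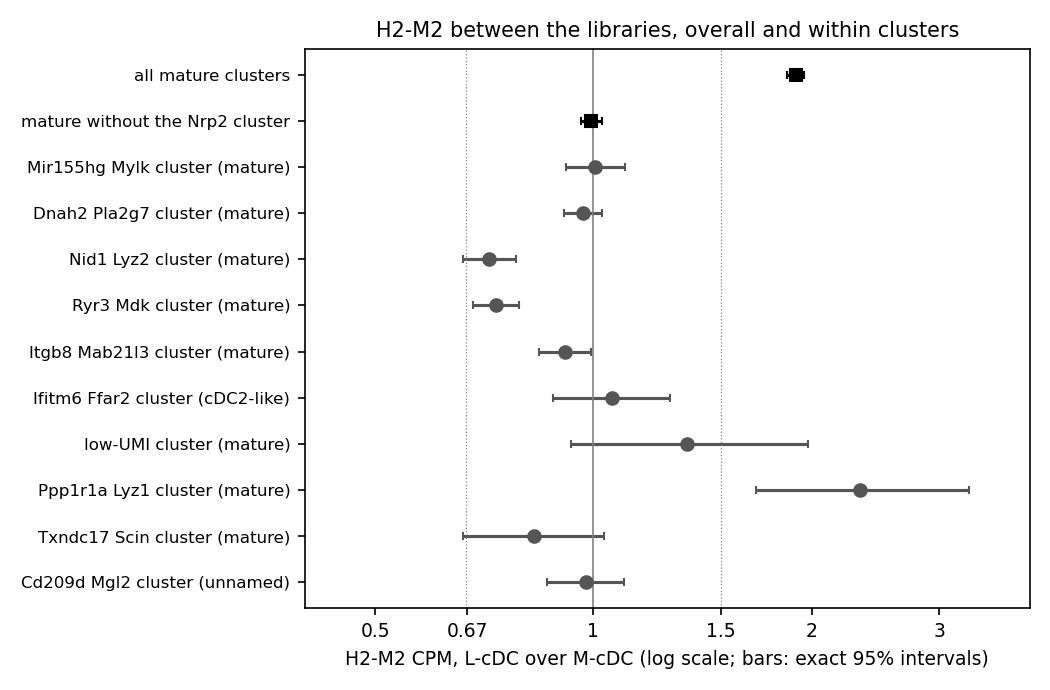
The x axis is the ratio of H2-M2 CPM in L-cDC over M-cDC on a log scale with exact 95% intervals; squares are the mature class with and without the Nrp2 cluster, circles are single clusters, and dotted lines mark 1.5-fold. The whole mature class sits at 1.90 and, without that cluster, at 0.99.

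Cd1d1 in mature cells was lower in L-cDC, at 254 against 314 CPM (ratio 0.81, 0.78 to 0.84). The direction turned, from a log2 ratio of -0.30 to 0.22, with naming by leading genes over all other clusters. That naming compares another set of cells. Among other clusters it leaves out the Dnah2 cluster, which held 52.2% of the mature Cd1d1 UMIs in L-cDC and 57.5% in M-cDC. Without the Nrp2 cluster the ratio was 0.94 (0.91 to 0.97), but it was 0.74 (0.70 to 0.77) within the Dnah2 cluster and 0.80 (0.75 to 0.86) within the Mir155hg cluster. Within clusters of any class, Cd1d1 stayed within 1.5-fold in 10 of 12. The exceptions were not mature, with ratios of 0.64 in the cDC1-like Ifi205 cluster and 1.81 in the unnamed Cd209d cluster. The other 6 members of the mature class had ratios between 0.90 for H2-T22 and 1.11 for H2-Q6. H2-Q7 and H2-T23 were within 1.5-fold in 12 of 12 clusters of any class, H2-M3 in 10 of 10, H2-Q4 and H2-T22 in 10 of 11 and H2-Q6 in 8 of 11. The H2-Q4 exception was the cDC2-like cluster and the H2-T22 exception the mature Ryr3 cluster. The 3 H2-Q6 exceptions, the mature Ryr3 and low-UMI clusters and the unnamed Cd209d cluster, were all higher in L-cDC.

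Of the classical class I heavy chains, peptide loading proteins and immunoproteasome subunits, 16 of 16 were considered. Over cDC1-like cells 7 were higher and 2 lower in L-cDC, and 8 and 2 in M-cDC. Over cDC2-like cells 12 were higher and 0 lower in both. For this and the following lists, 20.2% to 27.4% of all genes considered were higher in these comparisons and 32.8% to 38.3% lower. With libraries summed and the mean of the resting classes as reference, H2-K1 was 4326 against 1672 CPM, Tapbp, the loading factor tapasin, 367 against 151 CPM, Tapbpl, its homologue, 205 against 38.1 CPM, and Psme2, a proteasome activator subunit, 1554 against 367 CPM. The median log2 ratios of the list, 0.49 and 0.54 over cDC1-like and 1.13 and 1.26 over cDC2-like cells, were below those of the members. The members were picked with their levels known, and the list mixes heavy chains with loading and proteasome genes. This order is therefore a description and not a comparison of nonclassical with classical class I.

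Of the regulators of class I transcription 11 of 14 were considered. Over cDC1-like cells 6 were higher and 2 lower in L-cDC, and 5 and 2 in M-cDC. Over cDC2-like cells 4 were higher and 3 lower, and 5 and 3. Relb, an NF-kB subunit, was 950 against 156 CPM, Irf1, an interferon response factor, 335 against 82.9 CPM, and Nlrc5, the class I co-activator, 45.5 against 15.9 CPM. Relb is also one of the markers used to name the mature clusters, so its level is in part fixed by the naming. Rfxap, a subunit of the RFX complex, was lower in mature cells, at 17.2 against 50.8 CPM. Among mature clusters of at least 50 cells, Nlrc5 was highest in the low-UMI cluster, at 218 and 146 CPM on 72 and 24 UMIs, where H2-Q4 and H2-Q6 were highest too. In the Txndc17 and Aldh1a2 cluster, the highest for H2-T22, Nlrc5 measured 9.25 and 11.4 CPM.

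Genes of lipid antigen loading and CD1d trafficking mostly went the other way from Cd1d1. Of 11 considered, 2 were higher and 7 lower over cDC1-like cells in L-cDC and 1 and 7 in M-cDC, and over cDC2-like cells 2 and 7 in both. Gm2a, the GM2 activator, was 71.0 against 873 CPM, and Psap, the precursor of saposins that load lipids on CD1d, 230 against 1517 CPM. The median log2 ratio of the list lay between -0.90 and -0.71, against -0.33 to -0.10 over all genes considered.

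Among 21 further nonclassical and class I-like genes that the libraries list, 5 were considered, with 2 higher and 3 lower over cDC1-like cells and 2 and 2 over cDC2-like cells, in both libraries. H2-Q10, another Q region gene, was 97.9 against 28.3 CPM and Ulbp1, a ligand of NKG2D, 23.3 against 5.14 CPM, while Fcgrt, the neonatal Fc receptor, was 8.70 against 69.3 CPM and Hfe, a regulator of iron uptake, 84.4 against 195 CPM. Of receptors that read nonclassical class I, 4 were considered over cDC1-like cells, with 2 higher and 2 lower, and 3 over cDC2-like cells, with 0 higher and 1 lower. Cd8a was 15.3 against 102 CPM, Klrd1 37.8 against 156 CPM, Klrk1 30.2 against 75.7 CPM and Pirb 126 against 102 CPM. Cd8a is also one of the markers used to name the cDC1-like clusters, so its level is in part fixed by the naming. Of interferon-stimulated genes, 6 of 10 and 6 of 11 were higher over cDC1-like cells, with 4 lower in each. Over cDC2-like cells 6 of 11 were higher and 5 lower in L-cDC, while in M-cDC 5 of 14 were higher and 8 lower. Gbp2 was 254 against 11.6 CPM, Mx1 227 against 18.8 CPM and Rsad2 22.5 against 3.36 CPM, and Irf7 was lower, at 3.26 against 32.3 CPM. The list did not move one way, and its median log2 ratio ran from 2.49 over cDC1-like cells in L-cDC to -0.72 over cDC2-like cells in M-cDC.

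Shared sequence limits some members. The last 400 bases, where a 3′ library reads, were taken from the longest annotated protein-coding transcript of each member. Of 311 windows of 90 bases of H2-T22, 105 (33.8%) were identical to H2-T10, a near copy not analysed here. For H2-T23 16.1% of windows occurred in another gene (Rab33b and Hook2), for H2-Q4 12.5% and for H2-Q6 7.72%. H2-M2, H2-M3, H2-Q7, Cd1d1 and Mr1 had no shared window. How reads that fit several genes were counted is not given in the sources used here, so the level of H2-T22 above all is uncertain.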

How the data were processed

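The deposited matrices give raw UMI counts for each gene in each barcode. Per the file headers they come from Cell Ranger 6.1.2, and the alignment was to GRCm38 (mm10) per the submitters' processing notes. The deposited files of other content hold gene names and called barcodes. The annotation release and the counting of reads that fit several genes are not given in the sources used here. The 9 members, gene lists and motifs were chosen with earlier results of these data known.

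Cells with fewer than 500 genes or over 10% mitochondrial UMIs were removed, leaving 4086 and 5848. Scrublet's own thresholds were 0.635 (L-cDC, 3 cells marked) and 0.258 (M-cDC). The lower one was applied to both, after the thresholds were seen, and removed 143 and 248 cells. Cells were scaled to 10000 UMIs and clustered together on 2000 variable genes, 30 components and 15 neighbours (Leiden, resolution 1). A cluster took the name of the marker list with the highest score (at least 0.3) that had at least 3 markers detected at 10 CPM and at least 1 among its top 10 genes by fold over clusters of other lists, with no list having more there. The scoring was revised after a first naming was seen. Only cells of a named class entered the comparisons.

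UMIs were summed per class and library into CPM, with exact Poisson intervals, exact conditional binomial intervals for ratios and a floor of 3 counts. The text names all members, up to 4 genes of each of 6 lists by the largest absolute log2 ratio of mature over the mean of the resting classes, and the 3 genes most like each member (log2 of CPM plus 1, unnamed gene models left out). Values of some genes that this rule takes are not reported here. The ratios and intervals were run on simulated counts drawn independently, as the intervals assume. That run cannot show how the intervals hold for UMIs gathered in few cells, as those of H2-M2 are. Of 112 listed symbols 103 were in the table. Alternatives varied filters, doublets, clustering, naming, scaling and thinning, and 5 of the 20 were added after seeing the data. Gene positions came from GENCODE for GRCm38. Software was scanpy 1.11.5 with igraph 0.11.9 and scikit-learn 1.9.0, scipy 1.17.1, numpy 2.4.6, matplotlib 3.10.9 and pandas 2.3.3 under Python 3.11.15.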

Additional observations from a re-analysis of the deposited data

How the results depend on the processing

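Over 20 alternatives to 7 comparisons, 129 of 140 counts of members stayed within 1.5 times the reported count, and members higher in mature cells numbered 7 to 8 over cDC1-like and 6 to 7 over cDC2-like cells in either library. For L-cDC against M-cDC, the number of members differing by 1.5-fold in cDC1-like cells was 1 in place of 0 with a minimum of 200 genes, with at most 5% mitochondrial UMIs, with doublet-like cells kept and with cells thinned to 3000 UMIs. In cDC2-like cells it was 0 with doublet-like cells kept and with the mean of each cell's own CPM, 3 with thinned cells and 4 with each library clustered alone. In mature cells it was 2 with no filter on low counts, and 0 both with naming by leading genes over all other clusters and without the Nrp2 and Clu cluster, settings added after seeing the data. Both of these settings leave that cluster out of the mature class. The shares of all genes past 1.5-fold in the alternatives are not given here. The member counts therefore describe the settings and are not read as results about the members. Of 1260 ratios of single members 1045 stayed within the counting interval of the reported value. Leaving out Mr1, 59 of 1120 changed sign, 58 of them between L-cDC and M-cDC and 56 from a reported difference under 1.5-fold, of which 2 then passed 1.5-fold the other way: H2-M3 in cDC2-like cells with each library clustered alone (-0.69) and H2-M2 in cDC1-like cells with cells thinned (-0.80). The other 3 had passed 1.5-fold: H2-M2 in mature cells without the Nrp2 and Clu cluster (log2 ratio of L-cDC over M-cDC -0.0084) and H2-Q4 in cDC2-like cells with each library clustered alone (-0.93) and with cells classed one by one (-0.036). Apart from the removed cluster, the cause was not tested. Members with low counts are limited by depth, since Mr1 had at most 18 UMIs in a class of a library and H2-Q4 43 among the L-cDC library's cDC2-like cells. No paired analysis was possible because each group is 1 library.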
